A study of Homo sapiens with 9 samples.

Results

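The complement genes examined here were the components C1R, C1S, C3 and CFB, the soluble inhibitor CFI and the membrane regulators CD46, CD55 and CD59. They were taken by gene symbol, with earlier results of these data known, and make up 8 of the 62710 gene identifiers of the count table. HT-29 cells, a human colorectal adenocarcinoma line of wild-type (WT) genotype in every group, were left non-stimulated or were stimulated for 2.5 h with flagellin (500 ng/mL) or ADP-heptose (500 ng/mL). Flagellin is the bacterial protein sensed by TLR5, and ADP-heptose is a bacterial sugar metabolite sensed inside the cell by the kinase ALPK1. Poly(A) RNA was sequenced in 3 libraries per group, 9 in all, and the same non-stimulated libraries served as the control for both stimuli. The libraries came from independent experiments with 1 cell line, so that p-values describe the spread between those experiments.

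Complement is a cascade of plasma and tissue proteins in which proteases are activated one after another on a surface. The classical pathway starts with the C1 complex, in which C1R and C1S are the proteases, and the alternative pathway uses factor B (CFB). Both lead to cleavage of C3, whose fragment C3b tags the surface and which precedes assembly of the membrane attack complex. Host cells are protected by regulators: factor I (CFI) cleaves C3b with the help of cofactors such as CD46, CD55 speeds the decay of the C3 convertases, and CD59 blocks the last step of membrane attack complex assembly. Epithelial cells of the gut carry the membrane regulators on their surface, whereas the liver makes most plasma components.

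After ADP-heptose, transcripts of the membrane regulators CD55 and CD59 rose 1.73-fold and 1.56-fold, and CD46 was not called. C3 rose from almost no reads to between 30 and 44 counts per library. After flagellin, where 0.379% of all tested genes were called, none of the 6 genes that could be tested was. Of the 8 genes, only the 3 membrane regulators were abundant: they had 79614 to 123368 counts over the 9 libraries, against 4 to 138 for the other 5.

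The start regions of the membrane regulators are shown first, because these genes carry the abundant signal and differ in their change. RefSeq windows of 300 bases around annotated starts (build GRCh38.p14) were found for 6 of the 8 genes, and not for C3 and C1S. The 250 bases before the start are printed 5′ to 3′, with capitals for matches on either strand to TGACG, the core of the cAMP response element, or to the AP-1 site TGANTCA.
CD55 (chr1:207321428-207321677, plus strand): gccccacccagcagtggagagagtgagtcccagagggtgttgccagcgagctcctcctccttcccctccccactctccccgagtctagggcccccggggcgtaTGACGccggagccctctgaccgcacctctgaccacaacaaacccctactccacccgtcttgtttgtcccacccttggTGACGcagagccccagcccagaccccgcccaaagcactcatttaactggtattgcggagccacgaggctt
CD46 (chr1:207751788-207752037, plus strand): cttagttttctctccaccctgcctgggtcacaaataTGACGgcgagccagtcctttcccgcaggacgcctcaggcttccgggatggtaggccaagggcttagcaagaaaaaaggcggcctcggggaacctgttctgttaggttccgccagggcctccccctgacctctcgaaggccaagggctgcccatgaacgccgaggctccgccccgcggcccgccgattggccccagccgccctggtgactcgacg
CD59, start 1 (chr11:33736480-33736729, minus strand): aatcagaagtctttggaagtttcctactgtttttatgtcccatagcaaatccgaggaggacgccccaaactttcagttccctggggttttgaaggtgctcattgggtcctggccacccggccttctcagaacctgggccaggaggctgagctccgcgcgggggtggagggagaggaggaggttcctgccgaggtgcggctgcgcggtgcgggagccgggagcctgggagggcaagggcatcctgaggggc
CD59, start 4 (chr11:33722728-33722977, minus strand): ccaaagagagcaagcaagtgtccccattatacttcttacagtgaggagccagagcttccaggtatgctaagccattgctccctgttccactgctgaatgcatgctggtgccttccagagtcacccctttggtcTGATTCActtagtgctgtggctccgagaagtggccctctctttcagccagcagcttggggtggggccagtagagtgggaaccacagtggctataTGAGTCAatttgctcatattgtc
The CD55 window held TGACG 2 times, in a set where 24.6% of 35116 windows held it. The 2 CD46 windows, of which start 1 is printed, held it 1 time each, and so did the window at start 1 of C1R. The window at start 4 of CD59 held the AP-1 letters 3 times, the last of them just after the start and so beyond the printed bases, and 7.71% of windows held them. The windows at the other 3 of the 4 CD59 starts held neither of these motifs. No window of any of the 6 genes matched the κB consensus bound by NF-κB, which 5.91% of windows held. A match is a description of letters and no match says only that they are not in this window. The counts do not tell which start was used.

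The first comparison asked which complement genes differ after ADP-heptose. Values are normalized CPM, in which each library is scaled to a common size with TMM factors, and a gene was called at an edgeR quasi-likelihood adjusted p under 0.05. CFI and C1S were too low to test, which left 6. C3 passed the filter on low counts only through its ADP-heptose libraries and so had to be higher there. Of the 8 genes, 3 were called higher (C3, CD55 and CD59) and 0 lower, where 7.48% of all 17412 tested genes were called higher and 4.42% lower. Because of that filter the call of C3 is a description and nothing is read from its part in this count. C3 alone also passed 2-fold, a call made for 2.89% of tested genes in that direction, and the same holds there. For these 3 genes all ADP-heptose libraries were above the non-stimulated ones, a pattern of 15.4% of tested genes.

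**Figure D1:**
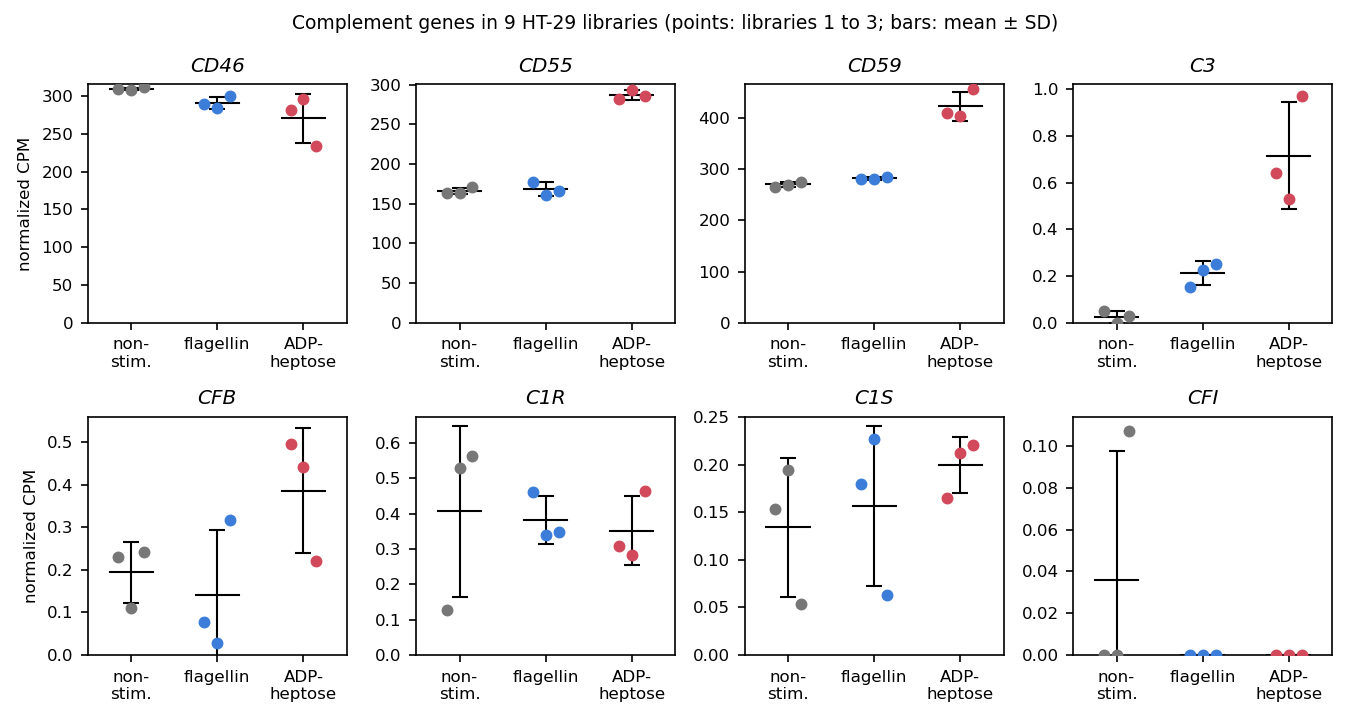
Normalized CPM of each complement gene in the 3 non-stimulated, 3 flagellin and 3 ADP-heptose libraries (points), with the mean and SD of each group (bars, cut at 0). The ADP-heptose points of CD55 (282 to 293 CPM) and CD59 (403 to 456 CPM) lie above all others, and the C3 points at 0.532 to 0.971 CPM do as well.

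CD55, or decay-accelerating factor, lies on chromosome 1 (207321376 to 207386804, plus strand). It was at 164, 164 and 171 CPM in the non-stimulated libraries, 178, 161 and 166 CPM after flagellin, and 282, 293 and 286 CPM after ADP-heptose. Every ADP-heptose library was above every other library, and the flagellin and non-stimulated values overlapped. The log2 fold change for ADP-heptose over non-stimulated cells was 0.79 (SE 0.06, edgeR adjusted p = 3.35e-06), with a 95% interval of the fold from 1.57 to 1.90. Group means were 166 ± 4.07 CPM without stimulation and 287 ± 5.86 CPM after ADP-heptose (SD, n = 3 each).

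CD59, or protectin, lies on chromosome 11 (33703010 to 33736491, minus strand). It was at 266, 269 and 276 CPM without stimulation, 281, 280 and 284 CPM after flagellin, and 409, 403 and 456 CPM after ADP-heptose. The ADP-heptose libraries were again above all the others, with the third one highest. The log2 fold change over non-stimulated cells was 0.64 (SE 0.07, edgeR adjusted p = 3.25e-05), with the fold between 1.41 and 1.73 (95% interval). A test against 1.5-fold in place of no change did not call CD59 (adjusted p = 1).

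CD46, or membrane cofactor protein, lies on chromosome 1 as well (207752057 to 207795513, plus strand). It was at 309, 308 and 311 CPM without stimulation, 290, 283 and 299 CPM after flagellin, and 282, 296 and 234 CPM after ADP-heptose. All 3 ADP-heptose libraries were below the non-stimulated ones, a pattern seen in 14.7% of tested genes, and the third was lowest. The difference on the log2 scale was -0.19 (SE 0.08, unadjusted p = 0.0398, edgeR adjusted p = 0.174), which did not pass. Without ADP-heptose replicate 3 it was -0.09, and scaling by library totals gave -0.32 with a call (edgeR adjusted p = 0.0459). ADP-heptose replicate 3 stood apart from the others of its group: the SD of log2 differences over genes was 0.363 and 0.371 to the other ADP-heptose libraries, against 0.109 between those and at most 0.165 within other groups.

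**Figure D2:**
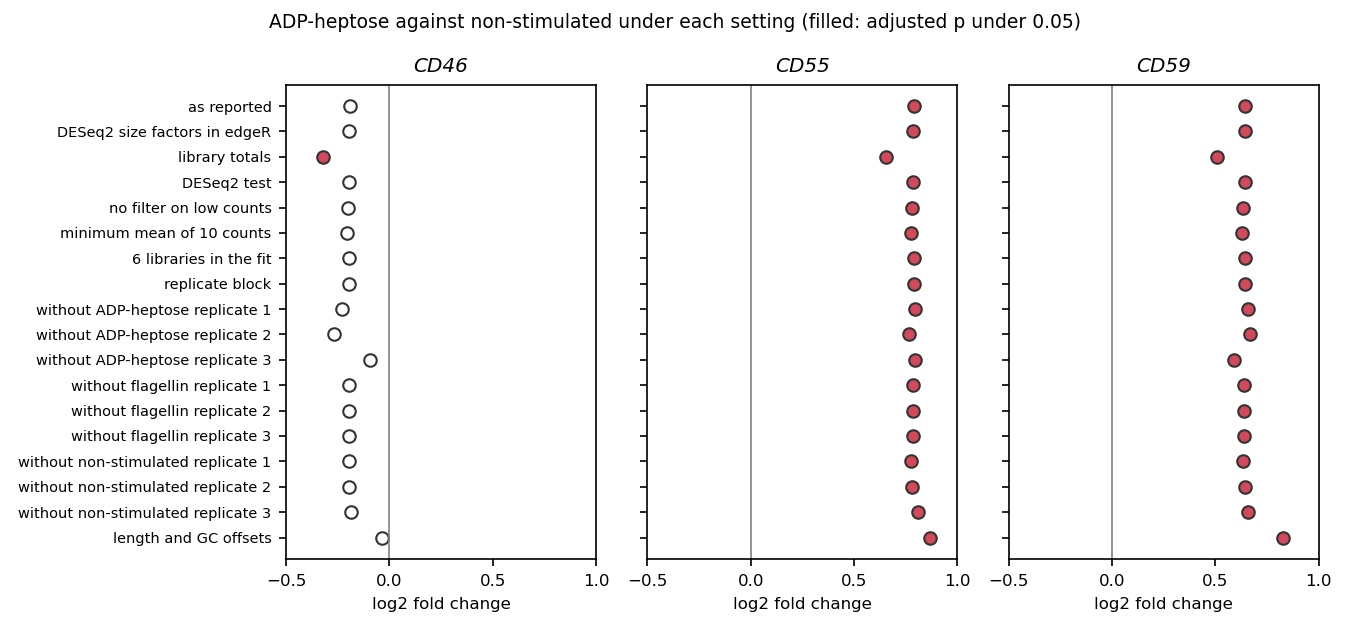
Log2 fold change of CD46, CD55 and CD59 after ADP-heptose over non-stimulated cells for the reported fit and each other setting except the test against 1.5-fold (filled points: adjusted p under 0.05). CD55 stays between 0.65 and 0.87 and CD59 between 0.51 and 0.83, whereas CD46 lies between -0.32 and -0.04 and is called with library totals alone.

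The summed level of the membrane regulators was 746 ± 10.4 CPM without stimulation, 741 ± 14.4 CPM after flagellin and 981 ± 10.6 CPM after ADP-heptose (SD, n = 3 each). ADP-heptose libraries did not overlap the non-stimulated ones, at the smallest p that an exact two-sided permutation test of 3 against 3 allows, 0.1. For flagellin the exact permutation p was 0.7 (n = 3 each). CD46 made up 41.5 ± 0.380% of this sum in the non-stimulated libraries, 39.2 ± 0.620% after flagellin and 27.6 ± 3.15% after ADP-heptose (SD, n = 3 each). This share also falls when the sum grows. CD46 itself averaged 309 CPM without stimulation and 271 CPM after ADP-heptose, and it was not called. The share of CD55 was 22.3 ± 0.238% without stimulation and 29.3 ± 0.293% after ADP-heptose, and that of CD59 was 36.3 ± 0.208% and 43.1 ± 3.20%. No ADP-heptose library overlapped a non-stimulated one in any of these shares. Flagellin libraries did not overlap the non-stimulated ones in the shares of CD46 and CD59, with CD59 at 38.1 ± 0.588% after flagellin. In the share of CD55 they did overlap. The log2 ratio of CD55 to CD46 was -0.90 ± 0.03 in non-stimulated, -0.79 ± 0.08 in flagellin and 0.09 ± 0.17 in ADP-heptose libraries (SD, n = 3 each). The log2 ratio of CD59 to CD46 differed by 0.84 between ADP-heptose and non-stimulated libraries. For both ratios these groups did not overlap (exact permutation p = 0.1, the smallest possible). With CD55 and CD59 above and CD46 below the non-stimulated libraries in every ADP-heptose library, this was fixed beforehand. It is no further test of these genes, and the same holds for the share of CD46. Flagellin and non-stimulated libraries did not overlap in either ratio as well (exact permutation p = 0.1). For CD59 to CD46 this also followed from the single genes, as CD59 was above and CD46 below in every flagellin library. The differences of flagellin from non-stimulated libraries were smaller, at 0.11 for CD55 to CD46 and 0.15 for CD59 to CD46. These sums and shares are not corrected for gene length, whereas a fixed gene length cancels in a difference of a ratio between groups. Effects of length or GC content that differ between libraries do not cancel. With offsets for them, the log2 fold changes of ADP-heptose over non-stimulated cells were -0.04 (CD46), 0.87 (CD55) and 0.83 (CD59).

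**Figure D3:**
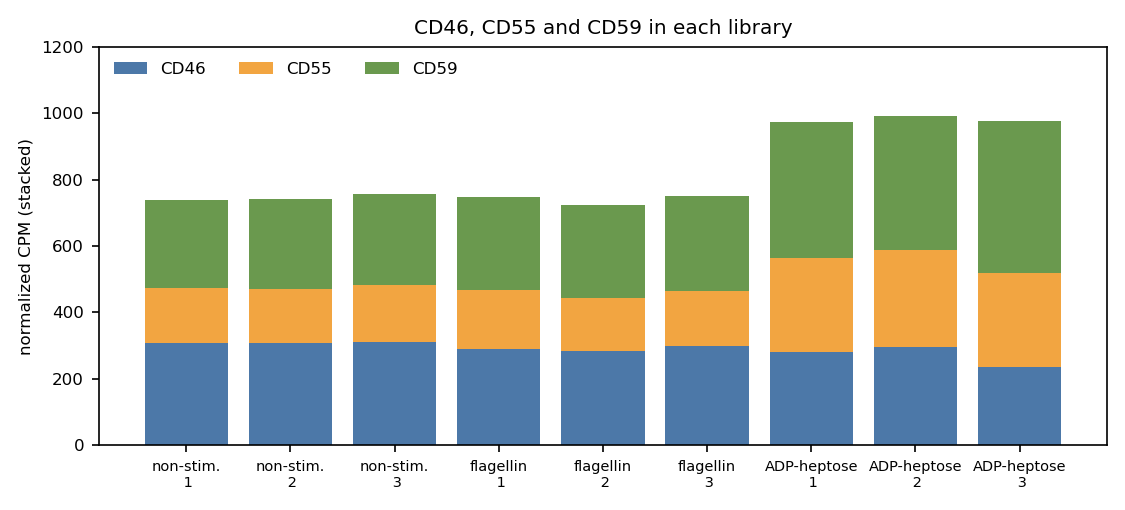
Normalized CPM of CD46, CD55 and CD59 stacked for each of the 9 libraries. The stack reaches 973 to 993 CPM in the ADP-heptose libraries and 724 to 758 CPM in the others, and the CD46 block is smallest in the third ADP-heptose library.

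C3, the component on which the pathways converge, lies on chromosome 19 (6677704 to 6730562, minus strand). The counts were 2, 0 and 1 in non-stimulated libraries, 6, 8 and 8 in flagellin libraries and 31, 30 and 44 in ADP-heptose libraries. The groups did not overlap, but the non-stimulated level was at or under the floor of 3 counts per library, which in the library with 0 counts allows up to 0.0835 CPM. The 105 summed counts after ADP-heptose against 3 without stimulation gave a CPM ratio of 26.2 (exact 95% interval 8.72 to 129, counting error only). The edgeR log2 fold change was 4.59 (SE 0.65, adjusted p = 0.000439). It was called in every other setting, from 4.08 without non-stimulated replicate 2 to 5.42 without non-stimulated replicate 1. C3 passed the filter on low counts only through its ADP-heptose libraries, so these calls are a description. Its level after ADP-heptose was 0.715 ± 0.229 CPM (SD, n = 3), or 0.0858 CPM per kilobase of exon, against 31.1 per kilobase for CD46 in the same libraries.

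CFB, the protease of the alternative pathway convertase, lies on chromosome 6 (31945650 to 31952084, plus strand). Its counts were 9, 4 and 9 in non-stimulated, 3, 1 and 10 in flagellin and 24, 25 and 10 in ADP-heptose libraries. After scaling, the third ADP-heptose library, at 0.221 CPM, was below non-stimulated replicates 1 and 3 (0.230 and 0.241 CPM). It was also no higher than the highest flagellin library, and the groups overlapped. The log2 fold change of ADP-heptose over non-stimulated cells was 0.98 (SE 0.63, edgeR adjusted p = 0.36). Its 59 summed counts against 22 gave a CPM ratio of 2.01 (exact 95% interval 1.21 to 3.44, counting error only). C1R, the protease that activates C1S, had 5 to 21 counts in non-stimulated, 11 to 18 in flagellin and 15 to 21 in ADP-heptose libraries, with a log2 fold change of -0.21 (SE 0.50, edgeR adjusted p = 0.83) that turned to 0.03 and 0.11 without non-stimulated replicate 2 or 3. C1S had 2 to 12 counts in any library, and CFI had 4 counts in 1 non-stimulated library and 0 in the other 8. These 4 genes were at the edge of detection at this depth, so differences within their counting error were not detectable. The CFB ratio lay outside that error, but its ADP-heptose libraries ranged from 10 to 25 counts and it was not called. C1R and C1S lie on chromosome 12 (7080199 to 7092607, minus strand, and 6988259 to 7071032, plus strand) and CFI on chromosome 4 (109740694 to 109802179, minus strand).

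Some of these genes share exon sequence with a neighbour on the same strand, so that reads could be split between them. CFB shares 2249 of its 4997 exon bases with AL645922.1 and CFI 1562 of its 4875 with AC126283.2, and both neighbours had 0 counts in every library. How reads in shared exons were assigned is not given in the sources used here, and the part of this in the low counts was not tested. C1R shares 672 exon bases with C1RL, which had 547 to 1119 counts per library, and C1S shares 229 with EMG1. CD59 shares 629 bases with AL049629.2, which had at most 30 counts against 8978 to 22748 for CD59.

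Per kilobase of merged exons the non-stimulated levels were 35.5 ± 0.196 CPM per kb for CD46, 28.1 ± 0.689 for CD55 and 26.1 ± 0.477 for CD59 (SD, n = 3 each). Per kilobase of the longest transcript CD55 came first at 57.4, ahead of CD46 at 39.5 and CD59 at 35.4, so the order without stimulation depended on the length used. After ADP-heptose CD55 was first by either length, at 48.6 ± 0.992 per exon kb, with CD59 at 40.8 ± 2.79 and CD46 at 31.1 ± 3.73. The other 5 genes were at 0.0031 to 0.0691 CPM per exon kb without stimulation.

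The second comparison asked whether flagellin, another bacterial stimulus, had the same effect. By the edgeR test 0 of the 6 tested genes were called, and at a share of 0.379% over all tested genes this says nothing particular about them. At an unadjusted p under 0.05 there was 1, C3, against 3.78% of tested genes, and DESeq2 called 0. The C3 log2 fold change was 2.84 (SE 0.75, unadjusted p = 0.00275, edgeR adjusted p = 0.393), and it was 3.67 without non-stimulated replicate 1 and 2.33 without non-stimulated replicate 2. Its 22 counts against 3 gave a ratio of 7.78 with an exact interval of 2.34 to 40.6 (counting error only). For CD55 the fold was 1.01 (95% interval 0.920 to 1.12) and for CD59 1.04 (0.942 to 1.15). CD46 was at -0.09 on the log2 scale (edgeR adjusted p = 1). All 3 flagellin libraries were above the non-stimulated ones for C3 and CD59 (7.66% of tested genes) and below for CD46 (5.19%).

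**Figure D4:**
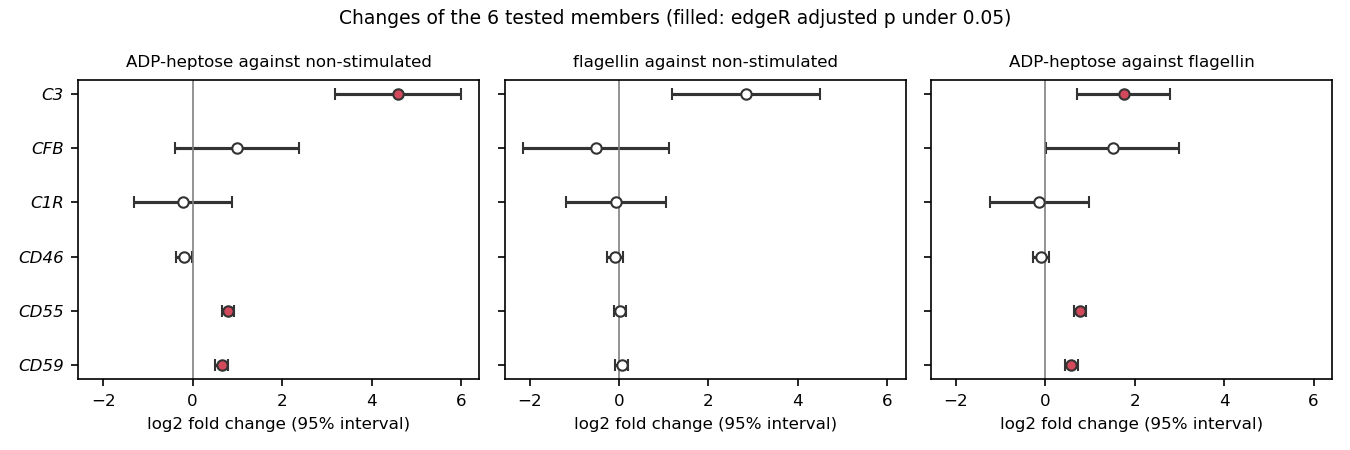
Log2 fold change with its 95% interval for the 6 tested complement genes in each comparison (filled points: edgeR adjusted p under 0.05). C3, CD55 and CD59 are filled in both ADP-heptose comparisons (4.59, 0.79 and 0.64 over non-stimulated cells), and no gene is filled for flagellin. C3 passed the filter on low counts only through its ADP-heptose libraries, so its filled points are a description.

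The third comparison set the stimuli against each other directly. C3, CD55 and CD59 were called higher after ADP-heptose than after flagellin, 3 of the 6 tested genes, where 5.4% of tested genes were called higher and 2.76% lower. Their ADP-heptose libraries were all above the flagellin ones, as were those of 14.2% of tested genes. C3 again entered the fit only through its ADP-heptose libraries, so its part in these counts is a description. CD55 differed by 0.77 on the log2 scale (SE 0.06, edgeR adjusted p = 6.26e-06) and CD59 by 0.58 (SE 0.07, edgeR adjusted p = 0.000104). Neither passed a test against 1.5-fold in this comparison (adjusted p = 0.0721 and 1). C3 differed by 1.75 (SE 0.47, edgeR adjusted p = 0.0416), and leaving out any single ADP-heptose or flagellin library, or non-stimulated replicate 3, ended that call, with adjusted p from 0.0549 to 0.16. CFB was at 2.83 times its flagellin level (95% interval 1.02 to 7.91, edgeR adjusted p = 0.229), which did not pass. On the log2 scale this CFB difference was 2.79 without flagellin replicate 3 and 1.03 without flagellin replicate 2. CD46 was at -0.10 on the log2 scale (edgeR adjusted p = 0.52), and at 0.00 without ADP-heptose replicate 3.

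The rest of the pathway was followed in a list of 49 other complement genes. Of these, 13 were tested, 19 had no counts in any library, and the remaining 17 had at most 18 counts. ADP-heptose gave 1 called higher among the 13, and 0 lower, a share near the 7.48% called higher over all tested genes. Their log2 fold changes had a median of 0.10 and those of all tested genes one of 0.01. After flagellin edgeR called 0, 0 had an unadjusted p under 0.05, and DESeq2 called 0.

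Of the genes listed under initiation, C1RL, a relative of C1R, had a log2 fold change of -0.03 after ADP-heptose and MASP2, the lectin pathway protease, one of -0.07, and neither passed. In the alternative pathway CFD, which cleaves factor B, was at 0.11 and properdin (CFP), which stabilizes the convertase, at -0.14. In the terminal pathway C5 was at -0.11 and C8G at 0.73. Of the soluble regulators, CLU had 0.10 and C4BPB 0.34 (unadjusted p = 0.0326, edgeR adjusted p = 0.154). None of these 8 genes passed.

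Among the receptors, the called gene was ITGAM, the alpha chain of complement receptor CR3. Non-stimulated libraries held 0, 0 and 6 counts of it, flagellin libraries 2, 2 and 8, and ADP-heptose libraries 59, 42 and 23. The ADP-heptose libraries did not overlap the others, and the gene passed the filter only through them. The log2 fold change was 3.87 (SE 0.87, edgeR adjusted p = 0.0121), and without the first or the second non-stimulated library the call was lost (adjusted p = 0.0563 and 0.0524). Without non-stimulated replicate 3, which held all 6 control counts, the fitted value was 8.10, so its size rests on that library. ITGB2, the beta chain of the same receptor, was at -0.23 on the log2 scale (edgeR adjusted p = 0.721), and C5AR1, the C5a receptor, one of 1.34 (edgeR adjusted p = 0.074). Of 10 leukocyte markers, 1 was tested, LYZ, with 13826 to 23970 counts per library. PTPRC had 0 to 2 counts, CSF1R had 2, 0 and 0 in non-stimulated, 6, 6 and 3 in flagellin and 8, 7 and 4 in ADP-heptose libraries, and CD3E, TYROBP and CD163 had 0 in all 9. The summed level of the 10 markers, carried by LYZ, was 402 to 421 CPM in non-stimulated, 430 to 438 in flagellin and 381 to 427 in ADP-heptose libraries. Its part in the ITGAM result was not tested.

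**Figure D5:**
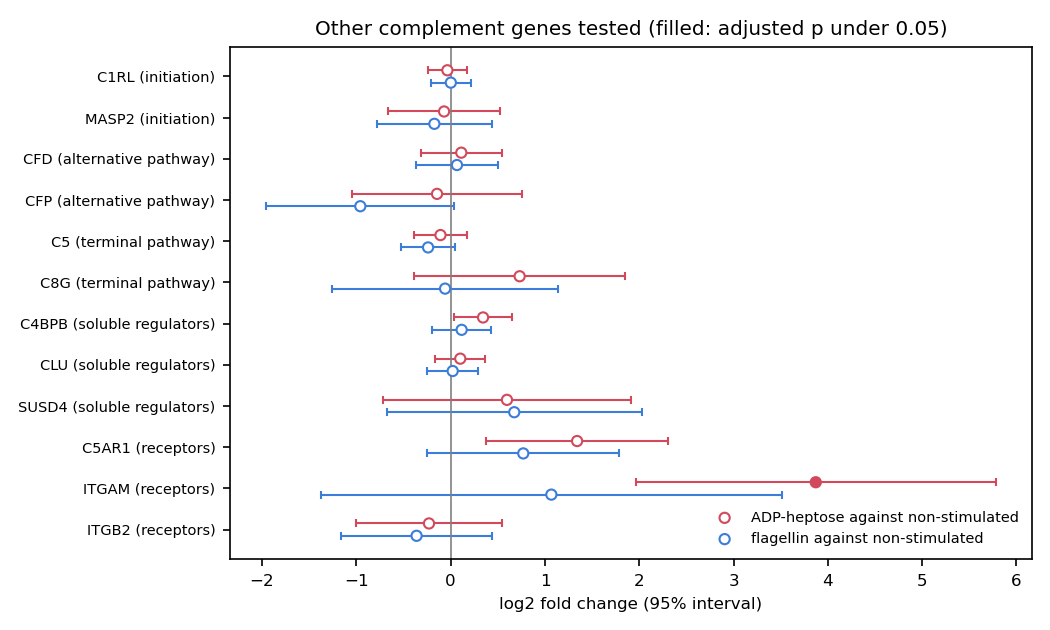
Log2 fold change with its 95% interval for 12 of the 13 tested other complement genes, after ADP-heptose (red) and flagellin (blue), grouped by role (filled points: edgeR adjusted p under 0.05). ITGAM after ADP-heptose, at 3.87, is the filled point.

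CD55 and CD46 lie in a cluster of complement regulator genes on chromosome 1, in which the genes between and beside them, other than C4BPB, were low. CR2 and CR1, complement receptors, had 0 counts in all libraries, CR1L had at most 4 and C4BPA at most 18. C4BPB, a chain of the C4b-binding protein, had 463 to 957 counts and was not called.

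The labelled cell line was checked against marker genes. Of 12 colon epithelium markers 11 were tested, with a summed level of 8696 to 9114 CPM in non-stimulated, 8920 to 9297 in flagellin and 9530 to 13401 in ADP-heptose libraries, the highest in the third ADP-heptose library. The intestinal regulators were low. CDX1 had 0 counts in non-stimulated and flagellin libraries and 4 to 12 in ADP-heptose libraries. CDX2 had 35 to 48 counts in non-stimulated, 18 to 43 in flagellin and 17 to 41 in ADP-heptose libraries. Hepatocyte markers summed to 154 to 168 CPM in non-stimulated, 162 to 180 in flagellin and 230 to 295 in ADP-heptose libraries, carried by SERPINA1, while ALB had 0 counts. Fibroblast and endothelial markers summed to 13.5 to 15.6 CPM in non-stimulated, 13.7 to 17.3 in flagellin and 17.5 to 19.9 in ADP-heptose libraries, carried by COL1A1 (449 to 1019 counts), while DCN was at 0. The part these play in the results was not tested. In RNA of bulk cultures, more RNA per cell and more cells with the RNA cannot be told apart.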

How the data were processed

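The deposited file holds raw read counts per gene, which the authors made by aligning reads with HISAT2 and counting with featureCounts. Their versions, the genome build, the annotation and the strand setting are not given in the sources used here. Genes with shared exons on the same strand, as here, cannot be told apart by strand. The table had 62972 lines for 62710 identifiers, and 232 identifiers repeated with identical counts were kept once. Columns of per-sample values not used numbered 0. Totals were 30770448 to 38304035 counts per library without stimulation or with flagellin and 50054773 to 58272772 with ADP-heptose.

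Counts of all 9 libraries were fitted in edgeR 4.0.16 (R 4.3.3) with TMM normalization, filterByExpr defaults, a robust quasi-likelihood fit and Benjamini-Hochberg adjustment over 17412 genes. The study used DESeq2 at an adjusted p of 0.05 and 2-fold, and EBSeq across its conditions. DESeq2 1.42.0 was an alternative here and EBSeq was not run. Interval bounds of folds come from the SE of the fit. Ratios of low counts have exact 95% intervals and zeros a floor of 3 counts, which cover counting error only. Gene positions and lengths are those of GENCODE 29 on GRCh38, matched by identifier. The fits were tested on simulated data. The alternatives were other scalings, filters, sets of libraries and tests, a block for the replicate number, and fits with a single library left out. Offsets for transcript length and GC content were added after seeing the data.

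The complement genes, lists and comparisons were chosen with earlier results of these data known. Named genes were the 8 genes, each other complement gene called in any comparison, up to 3 of the most abundant uncalled genes per role, and for each tested gene the 2 genes most like it in pattern. Genes of the chromosome region and markers are outside this rule, and 2 genes that it names are not reported here. Python 3.11.15 with matplotlib 3.10.9 drew the figures.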

Additional observations from a re-analysis of the deposited data

How the results depend on the processing

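Each result was recomputed under 18 alternatives, 17 planned and 1 added after seeing the data, although a few could not be applied to every result. The count of complement genes called after ADP-heptose over non-stimulated cells was 2 to 4 (3 as reported), and after flagellin 0 throughout. Over flagellin the count fell from 3 to 0 in the test against 1.5-fold, and leaving out single libraries gave 2 to 3. The 2-fold call there, C3, was 1 as reported, 0 with the replicate block and 0 to 1 with single libraries left out. The count of other complement genes called after ADP-heptose over non-stimulated cells, 1 as reported, was 2 with DESeq2 and 2 with no filter on low counts, where C4B, a near-identical copy of C4A, was added, and 0 to 2 with single libraries left out. Over flagellin it was 1 as reported, 0 with library totals, 0 with the replicate block and 0 to 1 with single libraries left out. The labels do not say what a replicate number shares. Correlations of same-numbered deviations ran from -0.38 to 0.22 and were not all over 0.1, so the numbers were not taken as pairs. Because ADP-heptose replicate 3 stood apart from its group, these correlations cannot exclude that the numbers mark shared experiments. With the block C3 over flagellin lost its call (edgeR adjusted p = 0.0815). Scaling by library totals moved the median over all tested genes (log2) to -0.13 (ADP-heptose over non-stimulated) and -0.11 (over flagellin), and the share of calls that were higher from 62.8% to 32.7% and from 66.2% to 40.0%. The number of genes called over all tested genes after flagellin was 66 as reported, 143 with 6 libraries in the fit, 100 with DESeq2, 124 with no filter, 28 against 1.5-fold, and from 38 without flagellin replicate 1 to 171 without ADP-heptose replicate 3. After ADP-heptose over non-stimulated cells it was 2072 as reported, 482 against 1.5-fold, and from 1317 without non-stimulated replicate 3 to 3288 without ADP-heptose replicate 3. It was 1354 without non-stimulated replicate 1. Over flagellin it was 1421 as reported, 324 against 1.5-fold, 2061 with no filter, 2174 with length and GC offsets, and from 912 without flagellin replicate 2 to 2721 without ADP-heptose replicate 3. The cause of these differences was not tested. Groups of 3 libraries and the low counts of C3, CFB, C1R, C1S and CFI limit what could be called.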

Other observations

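The genes most like each complement gene in pattern were found as those with the smallest root mean square difference of log2 values over the 9 libraries, among 11507 genes whose mean log2 CPM reached 1, or 11508 for the genes under that level. For CD55 they were C6orf141 (0.050) and VMP1 (0.061), for CD59 GCNT3 (0.035) and WARS1 (0.042), and for CD46 ATAD2 (0.029). After ADP-heptose C6orf141 and VMP1 were at 0.75 and 0.80 on the log2 scale over non-stimulated cells, next to 0.79 for CD55. For C3 they were STAT5A (0.37) and VNN1 (0.49), which were 3.30 and 3.08 higher (log2) after ADP-heptose and 1.61 and 1.45 higher after flagellin. The likeness was weaker for the genes with few counts, at 0.64 for C21orf91 and 0.66 for MIR22HG against CFB, and at 0.26 for ZNF502 and 0.33 for PDXP against C1R.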
